A study of Homo sapiens with 18 samples.

Results

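The HOX genes examined here were the 38 members of the HOXA, HOXB, HOXC and HOXD clusters listed for this work. They were found in the deposited RNA-seq table by matching its RefSeq accessions to gene symbols. All 38 were matched, in 35 of the 23500 table entries, because HOXA9 and HOXA10 share 1 entry and HOXC4, HOXC5 and HOXC6 share another. Expression of single genes within these 2 entries could not be separated, and the 2 entries are named below by all of their genes.

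The cells were ZR-75-1 (written ZR751 in the labels), an estrogen receptor-positive luminal breast cancer cell line, carrying a lentiviral short hairpin RNA. ZR751shMLL3 cells expressed a hairpin against MLL3 (gene symbol KMT2C), an enzyme that places the H3K4me1 mark at enhancers, and ZR751shLucif control cells expressed a hairpin against luciferase. Both lines were stably transduced and sorted for GFP, so each comparison was between 2 transduced populations of 1 parental line. RNA-seq and ChIP-seq for H3K4me1, for the estrogen receptor ERα and for the transcription factor SP1 each had 2 libraries per cell line. The study's methods call the replicates biological, but neither they nor the labels say whether the libraries came from separate cultures. The p-values therefore measure only the spread between these libraries.

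HOX genes encode homeodomain transcription factors that specify position along the body axis of the embryo. Within a cluster they lie in the order of their paralogue numbers, and low and high numbers are used in anterior and posterior tissue, respectively. Adult epithelia and cell lines keep a fixed subset of HOX genes on. That memory is classically held by trithorax proteins, which include H3K4 methyltransferases of the MLL family, and opposed by Polycomb proteins. H3K4me1 is a mark of enhancers and of the flanks of active promoters.

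KMT2C itself was at an FPKM (sequenced fragments scaled by transcript length and library size) of 2.34 and 6.77 in the ZR751shLucif libraries and of 1.07 and 2.69 in the ZR751shMLL3 libraries. The mean was lower in ZR751shMLL3, but the libraries of the cell lines overlapped (log2 difference −1.02 ± 0.54 SE, limma adjusted p = 0.629). The study also checked the knockdown separately, by qPCR of MLL3 in biological replicates, and reported a significant difference. ZR751shLucif replicate 1 stood apart from the other RNA-seq libraries: it correlated with them at 0.900 to 0.907 on the log2 scale across genes, against 0.947 to 0.969 among the other 3. Its library number also lay apart from those of the other 3, which were consecutive. The number does not tell whether it was prepared separately. All 8 luminal markers were expressed, from an FPKM of 10.8 to 4809. Of 7 markers of other cell types only COL1A1 passed the expression filter, at an FPKM of 13.1 to 17.8. The depth behind single genes is unknown, since the table holds FPKM and no counts.

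The HOX genes that were on lay mainly in the HOXC cluster. An entry was called on in a cell line at an FPKM of 1 or more in both libraries, off at less than 0.1 in both, and low otherwise. In ZR751shLucif 8 of the 35 entries were on, 10 were low and 17 were off. Thus 22.9% of the HOX entries were on, against 48.2% of all table entries. By cluster, 5 of 7 HOXC entries, 2 of 9 HOXA entries, 1 of 10 HOXB entries and 0 of 9 HOXD entries were on. The summed FPKM of a library ran from 81.7 to 142.2 for HOXC, from 10.5 to 14.1 for HOXB, from 4.29 to 7.77 for HOXA, and from 0.17 to 0.49 for HOXD.

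**Figure D1:**
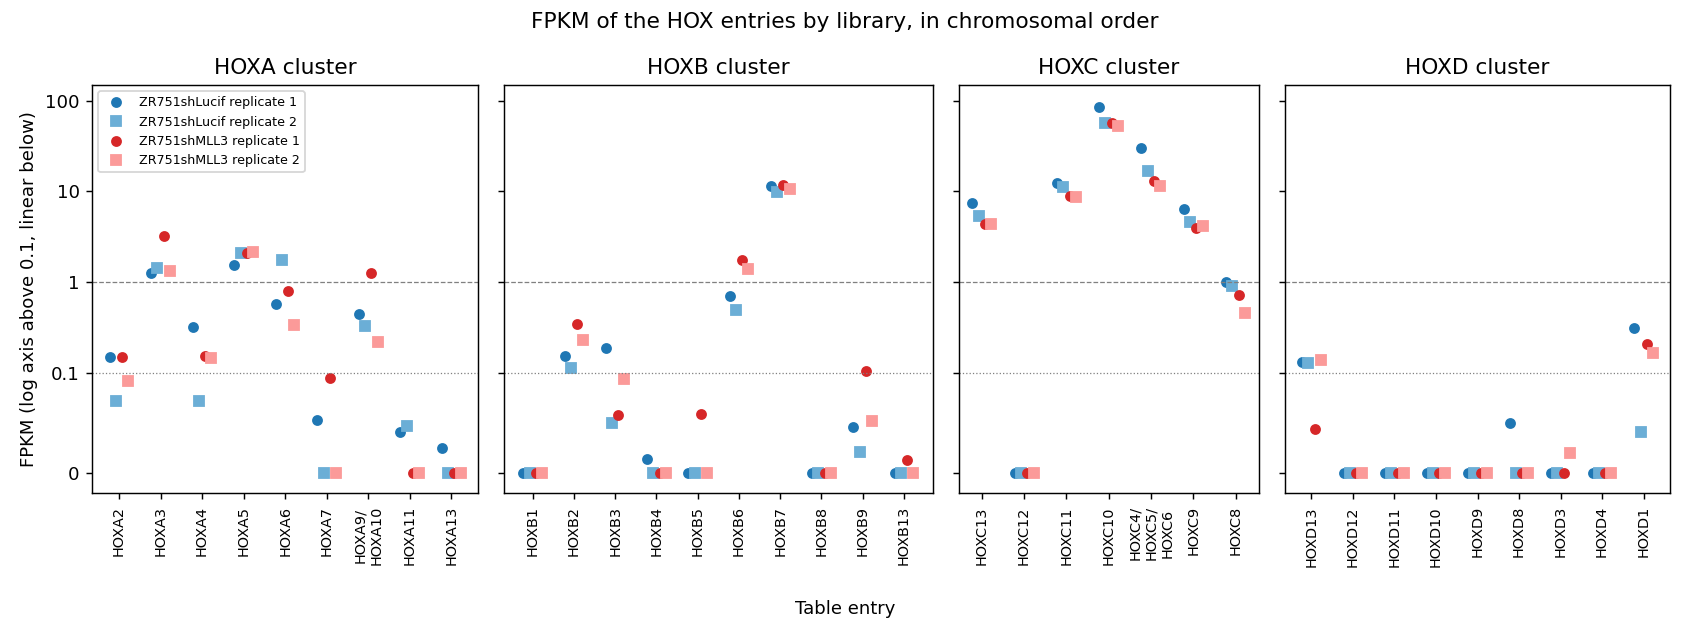
FPKM of each HOX table entry (y axis, logarithmic above 0.1 and linear below) in the 4 RNA-seq libraries, with entries of each cluster in chromosomal order on the x axis and dashed and dotted lines at the on and off thresholds of 1 and 0.1. HOXC entries other than HOXC12 and HOXC8 and the single HOXB entry HOXB7 lie at 3.92 or more, and no HOXD entry reaches 1.

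HOXC10, a posterior gene known from lumbar and hindlimb patterning, had the highest FPKM of all HOX entries, at 84.8 and 57.0 in ZR751shLucif and 57.3 and 52.6 in ZR751shMLL3. The entry of HOXC4, HOXC5 and HOXC6 came next in ZR751shLucif, at 30.3 and 16.9, and stood at 12.9 and 11.3 in ZR751shMLL3. HOXC11, a posterior paralogue next to HOXC10, was at 12.3 and 11.1 in ZR751shLucif and at 9.0 and 8.70 in ZR751shMLL3. In these 3 entries, as in HOXC13, HOXC9 and HOXC8 below, the highest value was that of ZR751shLucif replicate 1.

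HOXC13, the last gene of the cluster and best known for its part in hair and nail formation, was at 7.53 and 5.42 in ZR751shLucif and at 4.36 and 4.35 in ZR751shMLL3. HOXC9 was at 6.32 and 4.57 against 3.92 and 4.19. HOXC8 lay around the threshold of 1, at 1.00 and 0.90 against 0.73 and 0.46. HOXC12 was listed at 0 in all 4 libraries, while its neighbours HOXC11 and HOXC13 were on.

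In the HOXB cluster, HOXB7 stood alone. Its FPKM was 11.5 and 9.84 in ZR751shLucif and 11.8 and 10.5 in ZR751shMLL3, so the libraries of both lines overlapped. Its neighbour HOXB8 was listed at 0 in every library. HOXB6, on its other side, was at 0.69 and 0.49 in ZR751shLucif and at 1.76 and 1.38 in ZR751shMLL3. HOXB6 was therefore low in ZR751shLucif and on in ZR751shMLL3, with no overlap between the lines.

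HOXA entries were expressed at low levels. HOXA5, described as a regulator of epithelial differentiation in the breast, was at 1.56 and 2.08 in ZR751shLucif and at 2.08 and 2.16 in ZR751shMLL3. HOXA3 was at 1.26 and 1.42 against 3.23 and 1.34, and its high value came from ZR751shMLL3 replicate 1. HOXA6 reached 1.76 in ZR751shLucif replicate 2, with 0.57, 0.80 and 0.34 in ZR751shLucif replicate 1 and the ZR751shMLL3 libraries, respectively. The entry of HOXA9 and HOXA10 was at 0.44 and 0.33 in ZR751shLucif and at 1.27 and 0.22 in ZR751shMLL3. Each of the last 3 entries had 1 library well above its replicate.

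The other 23 entries stayed below 1 in every library, with a highest FPKM of 0.34 (HOXB2 in ZR751shMLL3 replicate 1). Of these, 8 were listed at 0 throughout, namely HOXB1, HOXB8, HOXC12, HOXD4, HOXD9, HOXD10, HOXD11 and HOXD12. An exact 0 in an FPKM table can also be a failed estimate. No HOXD entry exceeded 0.31. HOXB13, a posterior gene of prostate epithelium at the far end of its cluster, reached 0.0134 in 1 library and was listed at 0 in the other 3.

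The set of HOX genes that were on was nearly the same in both cell lines. In ZR751shMLL3 9 entries were on, 9 were low and 17 were off, and 32 of the 35 entries had the same state in both lines. The 3 that differed were HOXB6, HOXB3 and HOXB9. HOXB3 was low in ZR751shLucif (0.185 and 0.0497) and off in ZR751shMLL3 (0.0581 and 0.0939), and HOXB9 was off in ZR751shLucif (0.0455 and 0.0214) and low in ZR751shMLL3 (0.104 and 0.0522). For both, the values lay close to the threshold of 0.1.

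Expressed HOXC entries were lower in ZR751shMLL3, by differences that did not pass the test. FPKM were compared as log2(FPKM + 0.5), a scale that understates the change of low genes, with limma across the 11134 entries that had a mean above 1 on it. Of the 35 HOX entries, 8 passed this filter: 5 of HOXC, HOXA3, HOXA5 and HOXB7. None had an adjusted p under 0.05 in either direction, against 0% of all entries tested called higher and 0.00898% called lower in ZR751shMLL3. At an unadjusted p under 0.05, 1 HOX entry was lower and 0 were higher, and across all entries tested 480 were lower and 409 higher.

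The entry of HOXC4, HOXC5 and HOXC6 had the largest difference, −0.88 ± 0.35 (SE) on the log2 scale (limma adjusted p = 0.613). Without ZR751shLucif replicate 2 it was −1.29 (adjusted p = 0.029). That fit has ZR751shLucif replicate 1, the library that stood apart, as the lone control, which is assumed to vary like the ZR751shMLL3 libraries, and it called 8.23% of all entries lower. Without ZR751shLucif replicate 1 the difference was −0.46 (adjusted p = 0.378). HOXC13 differed by −0.51 ± 0.29 (adjusted p = 0.640), HOXC11 by −0.38 ± 0.26 (adjusted p = 0.669), HOXC9 by −0.37 ± 0.29 (adjusted p = 0.693) and HOXC10 by −0.34 ± 0.31 (adjusted p = 0.727). Removing ZR751shLucif replicate 1 left HOXC10 at −0.05, HOXC9 at −0.15 and HOXC13 at −0.29, so these differences were smaller without that library. HOXC11 moved least, to −0.31.

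HOXA3 was higher by 0.51 ± 0.39 (adjusted p = 0.691), but its difference was −0.0035 without ZR751shMLL3 replicate 1. HOXA5 differed by 0.18 ± 0.27 (adjusted p = 0.830) and HOXB7 by 0.07 ± 0.27 (adjusted p = 0.943). HOXB6, which did not pass the filter, differed by 0.93 ± 0.18 when all entries above 0 were tested (adjusted p = 0.436).

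**Figure D2:**
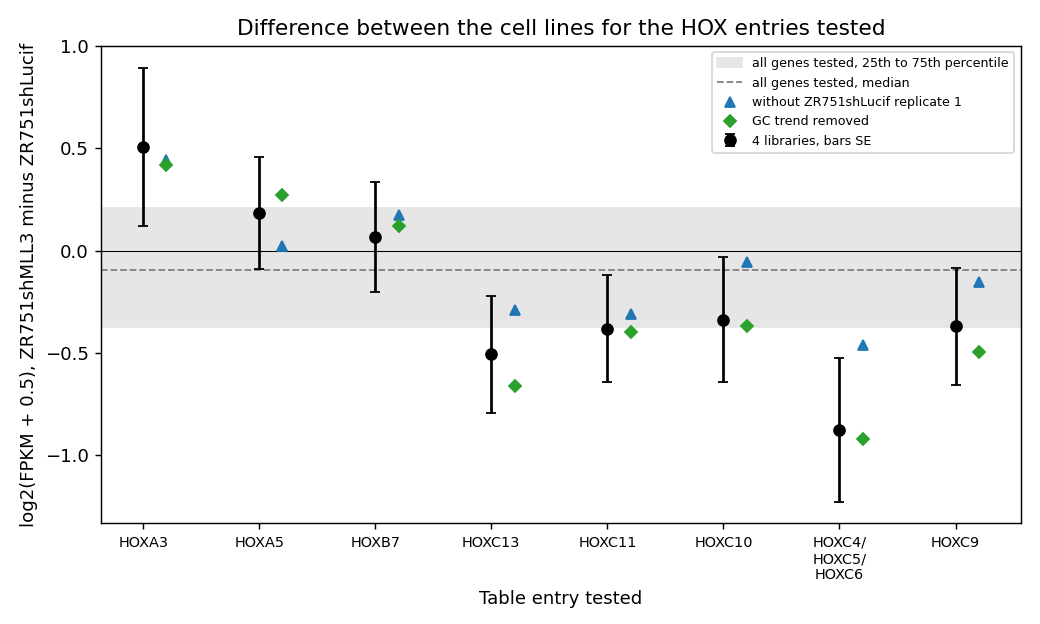
Difference in log2(FPKM + 0.5), ZR751shMLL3 minus ZR751shLucif (y axis), for the 8 HOX entries tested (x axis). Black points with SE bars are from all 4 libraries, triangles leave out ZR751shLucif replicate 1, diamonds have the trend with transcript GC content removed, and the grey band spans the 25th to 75th percentile of all 11134 entries tested, with their median dashed. The 5 HOXC entries lie below 0 in all 3 versions, with HOXC10 at −0.05 without that library.

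Between the lines, 4 of the 8 entries tested had both ZR751shMLL3 libraries below both ZR751shLucif libraries (HOXC4/HOXC5/HOXC6, HOXC9, HOXC11 and HOXC13), whereas 25.3% of all entries tested did so. HOXA5 was the 1 entry with both ZR751shMLL3 libraries above, against 17.6% of all entries, and the nearest libraries of the lines were both at 2.08. The median difference was −0.35 for the 8 HOX entries, and −0.10 for all entries tested. Across genes the difference rose with transcript GC content (Spearman's rho 0.529 across entries that share the same 4 libraries). With this trend removed, 5 HOX entries lay lower and 1 higher without overlap, against 15.1% and 17.7% of all entries. Removing it left the HOXC entries lower, with HOXC13 at −0.66 and HOXC4/HOXC5/HOXC6 at −0.92.

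The 3 noncoding RNAs of the HOXC cluster that passed the filter had lower means in ZR751shMLL3. HOTAIR, transcribed antisense between HOXC11 and HOXC12 and known for its association with Polycomb complexes, was at 3.64 and 2.02 in ZR751shLucif and at 1.00 and 1.55 in ZR751shMLL3 (log2 difference −0.88 ± 0.35, adjusted p = 0.612). HOXC-AS1 was at 11.7 and 2.55 against 1.52 and 3.48 (−1.11 ± 0.68, adjusted p = 0.649). HOXC13-AS was at 2.92 and 1.99 against 1.59 and 1.92 (−0.38 ± 0.29, adjusted p = 0.693). The setting of strand in the counting is not given in the sources used here, so reads of antisense partners may not have been told apart. HOXC-AS2, which did not pass the filter, was at 1.32 and 0.458 against 0.499 and 1.75, so the lines overlapped. Of 13 noncoding entries 3 were tested, 0 were called and 2 did not overlap between the lines, both lower, against 25.3% of all entries tested.

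No partner or regulator of HOX genes passed the adjusted threshold in any list. Of 5 TALE homeodomain cofactors tested, which bind DNA together with HOX proteins, 2 were higher and 1 was lower without overlap (17.6% and 25.3% of all entries tested). MEIS3 had the largest difference, with an FPKM of 24.8 and 19.2 against 37.1 and 32.2 (log2 difference 0.65 ± 0.28, adjusted p = 0.620), PBX3 differed by 0.24 and PKNOX1 by −0.37.

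Of 29 Polycomb entries tested, 9 were higher and 8 lower without overlap, against 17.6% and 25.3% of all entries, with a median difference of −0.01. EZH2, the H3K27 methyltransferase, was at 17.9 and 21.8 against 12.8 and 10.8 (−0.72 ± 0.28, adjusted p = 0.605). SUZ12, its partner in Polycomb repressive complex 2, was at 34.2 and 32.0 against 21.0 and 21.4 (−0.63 ± 0.26, adjusted p = 0.613). The chromodomain genes CBX6 and CBX7 had the largest positive differences, 0.80 and 0.60. Of 17 trithorax and activator entries tested, 2 were higher and 4 lower without overlap, near the shares of all entries (17.6% and 25.3%). The largest differences there were those of KMT2D (0.85 ± 0.55) and KDM6B (0.64), and of KMT2C (given above) and PSIP1 (−0.60). KMT2D was at 2.24 and 8.02 in ZR751shLucif and at 6.74 and 9.99 in ZR751shMLL3. The libraries of the lines overlapped for KMT2D and PSIP1, as for KMT2C, but not for KDM6B.

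Among the retinoid receptors and CDX genes, classical inducers of HOX transcription, 4 passed the filter, 3 were higher without overlap (17.6% of all entries tested were) and 0 were called. RARG was at 11.5 and 13.4 against 26.7 and 20.5 (0.89 ± 0.29, adjusted p = 0.585), and RXRA at 30.9 and 29.3 against 47.7 and 57.4 (0.79 ± 0.27, adjusted p = 0.599). The 13 flanking genes tested outside the clusters had a median of −0.20, with 2 higher and 3 lower without overlap, against 17.6% and 25.3% of all entries. SKAP1 (0.61) and SNX11 (0.45) had the largest positive differences, HNRNPA1 (−0.70) and ATP5MC3 (−0.43) the largest negative ones. Differences of the HOX entries tested were no larger than those of the flanking HNRNPA1, except for the entry of HOXC4, HOXC5 and HOXC6.

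Promoters of the members were searched as the 200 bases before the annotated start on the coding strand, from GRCh37 and the GENCODE annotation. The motifs were the GC box bound by SP1 (GGGCGG), the CCAAT box (CCAAT), the TATA box (TATAAA) and an arm of the estrogen response element (GGTCA), on both strands. Over all 38 members, 11 promoters (28.9%) held a GC box, against 56.0% of 20086 protein-coding promoters. A CCAAT box was found in 27 (71.1%), against 30.3%, a TATA box in 6 (15.8%), against 7.86%, and GGTCA in 16 (42.1%), against 25.3%. These matches are descriptions of letters in this window and no evidence of binding.

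Median GC content was 56.8% for the member promoters and 64.5% for all protein-coding promoters. By expression state in ZR751shLucif, a GC box was present in 1 of 10 promoters of genes in on entries, in 3 of 11 of genes in low entries and in 7 of 17 of genes that were off. A TATA box was found in 3 of 10, 3 of 11 and 0 of 17, a CCAAT box in 7, 8 and 12, and GGTCA in 7, 2 and 7, in the same order. The base composition of neighbouring windows is not independent, so no test was made.

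Listed H3K4me1 peaks were densest in the HOXC cluster and sparsest in HOXD, in every library. The windows ran from the first to the last base of the member genes: chr7:27139973-27239710 for HOXA, chr17:46605888-46806112 for HOXB, chr12:54332615-54449814 for HOXC and chr2:176957449-177055635 for HOXD. The peak lists held 299979 to 300000 H3K4me1 peaks per library, including many weak ones. Peaks of 1 list can overlap each other, and each was counted, so the counts and densities are not those of separate sites. In ZR751shLucif replicate 1, for example, HOXC peaks ran from 3.82 to 4.78 kb and from 4.03 to 4.99 kb. Among all listed peaks, HOXC held 50 and 37 in ZR751shLucif and 35 and 31 in ZR751shMLL3. HOXD held 4, 5, 4 and 5 in the same order.

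Relative to the genome-wide density of listed peaks in the same library, HOXC was at 4.03 and 2.98 times in ZR751shLucif and at 2.82 and 2.50 times in ZR751shMLL3. HOXD was at 0.385 to 0.481 times. HOXA (0.948 to 1.99 times) and HOXB (0.850 to 1.42 times) lay in between and did not overlap with either. The same order at the extremes was seen in RNA, where HOXC had the highest summed FPKM and HOXD the lowest. The order of the clusters in between was the opposite. HOXA lay above HOXB in H3K4me1 density in every library, though only by 0.948 against 0.944 in ZR751shLucif replicate 2. In summed FPKM it lay below HOXB in every library.

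**Figure D3:**
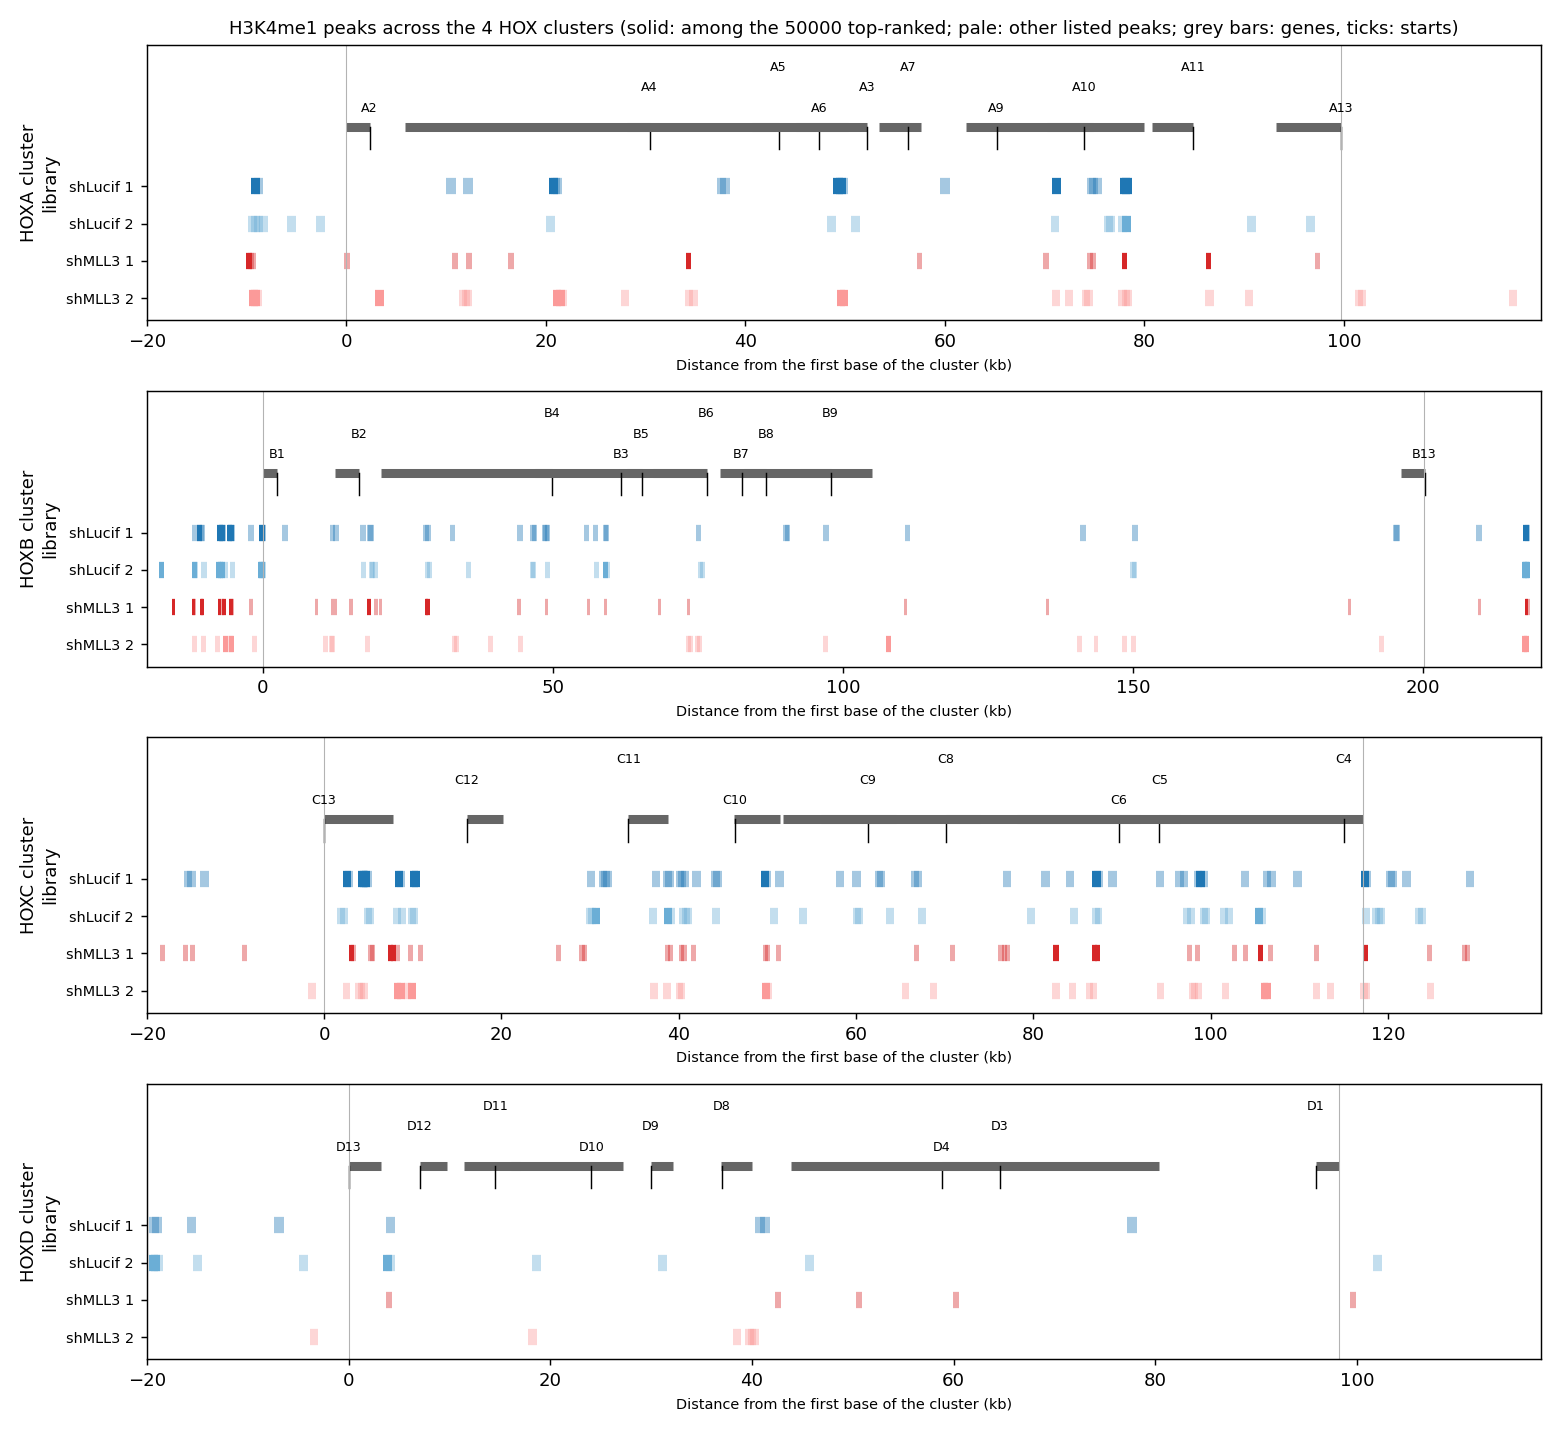
H3K4me1 peaks of each library (rows) along the 4 clusters, plotted as distance in kb from the first base of the cluster (x axis), with member genes as grey bars and their starts as ticks. Solid blocks are among the 50000 top-ranked peaks of a library and pale blocks are other listed peaks. In HOXC no library has a listed peak between 11.1 and 26.1 kb, where HOXC12 lies, and HOXD holds 4 or 5 peaks in each.

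Counts of all listed peaks, a choice made after seeing the data, were lower in both ZR751shMLL3 libraries than in both ZR751shLucif libraries in HOXC and in HOXB. In HOXC the difference of means was −10.5 (two-sided exact permutation p = 0.333). HOXB held 30 and 20 against 18 and 19 (difference −6.5, exact permutation p = 0.333). The lines overlapped in HOXD and in HOXA, which held 17 and 10 against 12 and 21. With peaks at an FDR of 0.01 or less, the counts were 24 and 27 against 2 and 14 in HOXC (difference −17.5). In HOXB they were 7 and 16 against 2 and 5 (difference −8.0), and over all clusters 42 and 50 against 6 and 29 (difference −28.5). Each of these had an exact permutation p of 0.333. This is the smallest p that 2 libraries against 2 can give. Genome-wide, 141158 and 192201 H3K4me1 peaks in ZR751shLucif and 28599 and 109586 in ZR751shMLL3 met that FDR, so both ZR751shMLL3 lists were shorter as a whole, and the part of this in the HOX counts was not tested. HOXC bases under listed peaks numbered 32676 and 23820 in ZR751shLucif and 17235 and 19497 in ZR751shMLL3, while listed peaks covered 7.02%, 6.86%, 5.46% and 6.81% of the genome in these libraries.

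The comparison over the 50000 top-ranked peaks by signal, in which each list contributed the same number of peaks, did not show this difference. HOXC then held 11 and 3 peaks in ZR751shLucif and 7 and 6 in ZR751shMLL3, so the replicates of the control spanned both libraries of the knockdown. Over all clusters the counts were 18 and 8 against 13 and 12 (difference of means −0.5, exact permutation p = 1.0). HOXA held 6 and 1 against 3 and 5, HOXB 1 and 3 against 3 and 1, and HOXD 0 and 1 against 0 and 0. None of the 12 comparisons of a cluster and an antibody passed, with adjusted p = 1.0 in each.

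Few top-ranked H3K4me1 peaks in the HOX clusters recurred between replicates. In ZR751shLucif, 3 of 18 cluster peaks of replicate 1 overlapped a top-ranked peak of replicate 2 (16.7%, against 50.6% genome-wide), and in ZR751shMLL3 2 of 13 did (15.4%, against 31.0%). With all listed peaks the shares were 60.4% against 69.6% and 43.5% against 43.3%, respectively, and the differences were not tested. Only short stretches were covered by listed H3K4me1 peaks in all 4 libraries. There were 7 of these in HOXC (2869 bases, 2.45% of the cluster), 1 in HOXA (576 bases, 0.578%), 1 in HOXB (179 bases, 0.0894%) and 0 in HOXD, against 0.712% of the genome. In HOXC they lay between HOXC13 and HOXC12 (2 regions), in a noncoding part of an exon of HOXC11, between HOXC11 and HOXC10, upstream of HOXC6, and in the HOXC4 locus (2 regions of 18 and 26 bases).

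4 of the regions outside exons, where replicates and cell lines coincided, are shown by their central 200 bases (GRCh37, plus strand). Another such region, at chr12:54342276-54342618, lay 6240 bases before the start of HOXC12 and is not shown. The region at chr12:54340596-54341141 lay 7819 bases before the start of HOXC12 and ranked 21088 and 143200 in ZR751shLucif and 37687 and 29324 in ZR751shMLL3. That at chr12:54372638-54373356 lay 5933 bases before HOXC10 and ranked between 85783 and 115504. That at chr12:54419277-54419818 lay 2677 bases before the start of HOXC6, within introns of longer HOXC6 and HOXC4 transcripts. The HOXA region, chr7:27217679-27218254, lay 4027 bases before the start of HOXA10, within introns of longer transcripts annotated to HOXA10. It ranked 4603 and 47692 in ZR751shLucif and 5165 and 84904 in ZR751shMLL3. Capitals mark the GC box (GGGCGG) and GGTCA on either strand.
Between HOXC13 and HOXC12, chr12:54340769-54340968: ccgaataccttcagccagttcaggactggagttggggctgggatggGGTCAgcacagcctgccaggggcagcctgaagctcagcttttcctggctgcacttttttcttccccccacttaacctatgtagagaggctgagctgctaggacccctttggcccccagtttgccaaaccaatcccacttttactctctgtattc
Between HOXC11 and HOXC10, chr12:54372898-54373097: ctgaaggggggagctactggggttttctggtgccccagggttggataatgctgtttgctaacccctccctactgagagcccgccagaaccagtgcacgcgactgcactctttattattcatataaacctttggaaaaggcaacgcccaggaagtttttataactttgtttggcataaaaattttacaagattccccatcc
Upstream of HOXC6, chr12:54419448-54419647: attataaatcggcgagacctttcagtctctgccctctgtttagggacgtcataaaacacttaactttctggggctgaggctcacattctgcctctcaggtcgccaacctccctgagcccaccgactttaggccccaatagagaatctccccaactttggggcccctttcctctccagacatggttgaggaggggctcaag
Upstream of HOXA10, chr7:27217867-27218066: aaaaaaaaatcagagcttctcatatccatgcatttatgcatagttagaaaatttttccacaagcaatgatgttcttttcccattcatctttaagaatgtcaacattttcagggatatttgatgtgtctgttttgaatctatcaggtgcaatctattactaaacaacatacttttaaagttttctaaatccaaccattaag

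Of the 4 shown, only the first held a match, 1 copy of GGTCA. Of the regions of 200 bases or more not shown, that 6240 bases before HOXC12 held 0 matches, and that in the HOXC11 exon held 1 copy of GGTCA. Among 9527 regions of 200 bases or more shared by the 4 libraries on the 4 chromosomes with HOX clusters, 24.6% held GGTCA and 1.21% held a GC box in the central 200 bases.

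H3K4me1 peaks lay mostly away from HOX start sites. A top-ranked peak within 1 kb of an annotated start was found for 0 of 38 members in 3 libraries and for 1 member (HOXA2) in ZR751shMLL3 replicate 2, against 5.06% to 8.34% of 20090 protein-coding genes. With all listed peaks it was 9 and 7 members in ZR751shLucif and 4 and 8 in ZR751shMLL3, or 10.5% to 23.7% of members, against 23.9% to 39.3% of protein-coding genes. Of the 10 members in on entries, 3, 2, 0 and 2 had a listed peak in these libraries. The numbers were 3, 3, 2 and 5 of the 11 members in low entries, and 3, 2, 2 and 1 of the 17 that were off. HOXC10, the highest entry by FPKM, had none within 1 kb in any library, and HOXB4, which was off, had one in 3 of 4. So had HOXA10, HOXB2 and HOXB6, whose entries were low in ZR751shLucif.

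ERα peaks in the HOX clusters were few and seldom recurred between replicates. ERα is the receptor that drives luminal breast cancer cells and usually binds distal enhancers. Among the 50000 top-ranked peaks, all clusters together held 6 and 6 in ZR751shLucif and 10 and 8 in ZR751shMLL3 (difference of means 3.0, exact permutation p = 0.333, the smallest possible). HOXB held 2 and 1 against 4 and 6, and HOXD 3 and 1 against 0 and 0. HOXA held 1 and 3 against 6 and 1, and HOXC 0 and 1 against 0 and 1.

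Over all listed peaks, ERα density in HOXC was 0.773 and 0.323 times the genome's in ZR751shLucif and 0.323 and 0.727 times in ZR751shMLL3, below 1 in every library although HOXC was the most expressed cluster. No base of any cluster lay under a listed ERα peak in all 4 libraries, and this held for 0.0023% of the genome. Of the top-ranked peaks in the clusters, 1 of 6 in ZR751shLucif replicate 1 overlapped one of replicate 2, and 0 of 10 in ZR751shMLL3 replicate 1 did so. Genome-wide these shares were 3.08% and 4.13%, so replicate ERα lists shared few peaks anywhere. The recurrent peak lay 189 kb into the HOXB window, between HOXB9 and HOXB13, and ranked 34477 and 11147. The library names put the ERα library ZR751shLucif replicate 2 in another series than the other 3. Without it the difference over all clusters was 3.0 as well. The input of each line also came from a different library series, so input and cell line cannot be told apart.

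**Figure D4:**
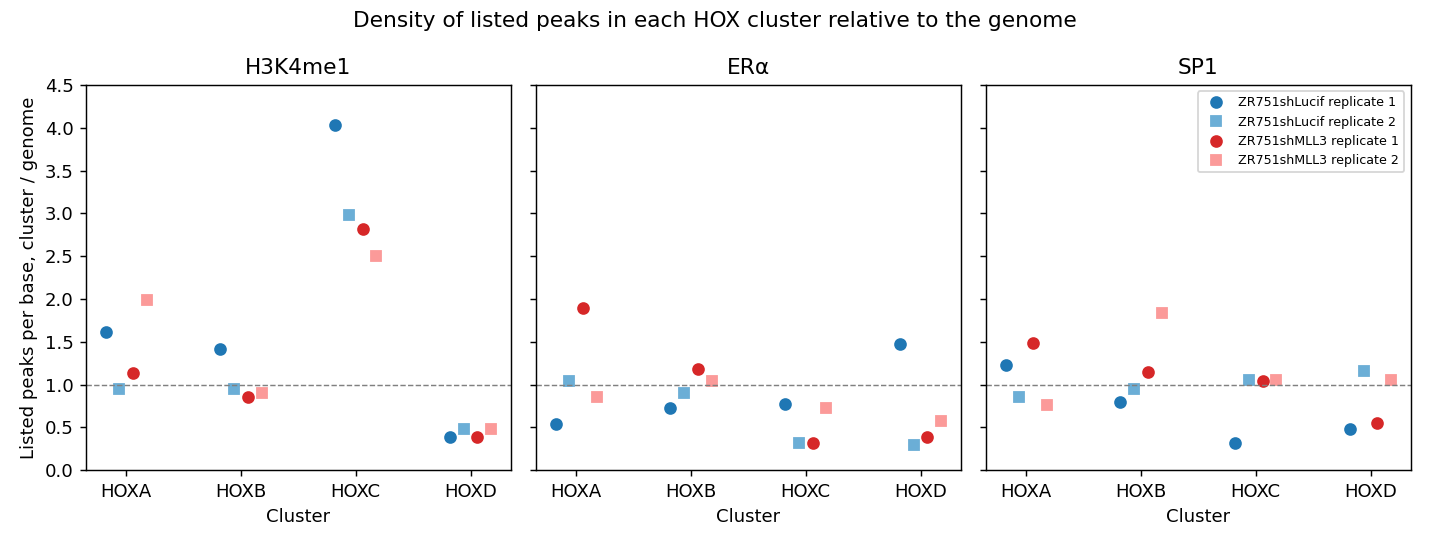
Listed peaks per base in each HOX cluster divided by listed peaks per base in the genome (y axis), for H3K4me1, ERα and SP1 (panels) in each of the 4 libraries (points), with a dashed line at 1. For H3K4me1 the HOXC points lie between 2.50 and 4.03 and the HOXD points between 0.385 and 0.481, while ERα and SP1 points scatter between 0.289 and 1.90.

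SP1 peaks were likewise few. SP1 is a ubiquitous activator that binds GC boxes in promoters. Among the 50000 top-ranked peaks, all clusters held 7 and 9 in ZR751shLucif and 6 and 14 in ZR751shMLL3 (difference of means 2.0, exact permutation p = 1.0). The highest count for a single cluster was 8, in HOXB in ZR751shMLL3 replicate 2, against 4, 4 and 3 in the other libraries. No top-ranked SP1 peak of replicate 1 in the clusters overlapped one of replicate 2 (0 of 7 in ZR751shLucif and 0 of 6 in ZR751shMLL3), against 2.50% and 4.28% genome-wide. HOXC held 0 and 2 against 2 and 2, HOXA 2 and 1 against 1 and 1, and HOXD 1 and 2 against 0 and 3.

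At promoters the SP1 libraries differed from each other. In ZR751shMLL3 replicate 2, 39.2% of protein-coding genes had a top-ranked SP1 peak within 1 kb of the start, against 5.90%, 6.65% and 7.61% in the other 3 libraries. In that library 4 of 38 HOX members (10.5%) had such a peak: HOXB4, HOXB7, HOXC13 and HOXD10. Of these HOXB7 and HOXC13 were on and HOXB4 and HOXD10 were off. HOXC13 also had an SP1 peak in ZR751shLucif replicate 1. HOXB1, listed at an FPKM of 0, had one in both ZR751shLucif libraries, but these peaks did not overlap each other. In both ZR751shLucif libraries, 0 SP1 peaks met an FDR of 0.01 or less. In the remaining library, ZR751shMLL3 replicate 1, 0 members had a top-ranked SP1 peak within 1 kb.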

How the data were processed

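RNA-seq (stranded total RNA, paired-end) and ChIP-seq of ZR751shLucif and ZR751shMLL3 cells were used, with 2 libraries per cell line and assay, grouped by the sample labels. Per the labels and the methods, the authors made the deposited FPKM with TopHat2 2.0.13, Cufflinks 2.2.1 and Cuffnorm 2.2.1 on hg19. For ChIP-seq they aligned reads with BWA 0.7.5a-r405, filtered them with SAMtools and Picard 1.126, and called peaks with SPP, library by library, using as control the input sample from the matching line. The deposited peak lists give SPP signal and the −log10 of the FDR for each peak, as relaxed lists of 156481 to 300000 peaks. Input libraries were not analysed here. The 0 peaks past a chromosome end in GRCh37 fit the build named hg19.

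Here, log2(FPKM + 0.5) was tested with limma 3.58.1 in R 4.3.3 on entries with a mean above 1, without covariates, with Benjamini-Hochberg adjustment over all entries tested and a threshold of 0.05. The surrogate variables of the study's methods were an alternative. Table symbols came from RefSeq, gene models and start sites from GENCODE v44 lifted to GRCh37, and GC content of the main transcript was known for 97.9% of the entries tested. Peaks were ranked by signal within each library, because signal has its own scale in each list, and the 50000 top-ranked peaks overlapping a window by 1 base were counted. Counts were compared by two-sided exact permutation tests of 2 against 2 libraries, in 12 comparisons. Genome density used the 2835673565 known bases of chromosomes 1 to 22 and X.

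Every member at an FPKM of 1 or more in any library was named by library and the others by range and count. Of the other lists, the 2 largest differences each way among tested entries were named. The members, the lists and the rule were chosen with earlier results of these data known. Genes in the text that fall outside this rule (HOXB1, HOXB2, HOXB3, HOXB4, HOXB8, HOXB9, HOXB13, HOXC12, HOXD10, HOXA2, HOXC13-AS and HOXC-AS2) were picked after their values were seen. In bulk libraries, fewer expressing cells and less RNA per cell cannot be told apart. Some promoter sequences and a value in a gene list are not reported here.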

Additional observations from a re-analysis of the deposited data

How the results depend on the processing

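Of 64 recalculated differences of single HOX entries under other processing, 0 changed sign. Dropping the filter, blocking on replicate number, removing the surrogate variable and limma's trend option leave each difference unchanged by construction. Only the other settings could therefore change a sign. The threshold was passed by 2 of the 64 differences. These were HOXC13 and HOXC11 after surrogate variable removal, whose linear model does not count the variable as fitted. It called 2 of the 8 HOX entries tested, both lower, and 1682 of all entries (15.1%), with both directions counted together. Without the filter on low values, 27 HOX entries were tested, 0 were called, and 4 lay higher and 6 lower without overlap, against 16.6% and 22.5% of 18215 entries. The median difference was −0.0205. The cause was not tested, beyond the added low entries.

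Leaving out 1 RNA-seq library at a time gave 0 to 1 HOX entries called lower, 1 to 3 without overlap on the higher side (24.5% to 41.3% of all entries) and 4 to 5 on the lower side (32.7% to 54.7%), and a median difference between −0.52 and −0.10. HOXA3 then ranged from −0.0035 (without ZR751shMLL3 replicate 1) to 1.02, and HOXB7 from −0.038 to 0.17. With 1 library against 2, groups overlap less often by construction. Without ZR751shLucif replicate 2, 1269 of all entries (11.4%) were called.

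The replicate numbers were not used to pair the libraries. Deviations of same-numbered RNA-seq libraries correlated at 0.0374, but a single value from 2 libraries per line cannot decide whether they were paired. With the replicate number as a block, 0 HOX entries were called, as without it, while 33 of all entries were called. On the higher side 2 HOX entries did not overlap (22.9% of all entries), and on the lower side 5 did not (32.1%). In ChIP-seq the replicate block left each difference of means unchanged by construction.

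Peak differences (ZR751shMLL3 minus ZR751shLucif) changed sign in 9 of 105 recalculations under other processing and in 7 of 60 with a library left out. The replicate block could not change a sign, and a main difference of 0 could not count as changed. Such main differences were those of H3K4me1 in HOXB, ERα in HOXC and SP1 in HOXD. The FDR of 0.01 or less, which 0 peaks reached in both ZR751shLucif SP1 lists, gave the largest differences. These were −28.5 for H3K4me1 and 20.5 for SP1 over all clusters, with −17.5 for H3K4me1 in HOXC and −8.0 in HOXB. Differences that changed sign at this FDR were −2.5 for H3K4me1 in HOXA, −0.5 for ERα in HOXA and in HOXB, −5.0 for ERα over all clusters, and 6.0 for SP1 in HOXA. With 100000 peaks per library they were 0.5 for H3K4me1 in HOXC, for H3K4me1 in HOXD and for SP1 in HOXA. With summits inside the window, H3K4me1 over all clusters was 1.5. Leaving out 1 library gave ranges of −2.0 to 3.0 (H3K4me1, HOXA), −4.5 to 3.5 (H3K4me1, HOXC), −5.5 to 4.5 (H3K4me1, all clusters), −1.0 to 4.0 (ERα, HOXA), −1.0 to 4.0 (SP1, HOXB) and −2.0 to 6.0 (SP1, all clusters). The positive ends of the H3K4me1 ranges came without ZR751shLucif replicate 1.

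Mean numbers of member promoters with a peak rose within 5 kb to 7.5 and 5.5 for H3K4me1, 3.5 and 5.5 for ERα, and 7.0 and 6.5 for SP1 (ZR751shLucif and ZR751shMLL3). With all listed peaks they were 8.0 and 6.0, 4.0 and 6.0, and 7.5 and 6.5. At the stricter FDR the ZR751shLucif means came to 3.0 (H3K4me1), 1.5 (ERα) and 0.0 (SP1). The wider distance and longer lists admit more peaks by construction. The unknown depth of the FPKM and the weak overlap of replicate peak lists limited every comparison.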
